A study of Mus musculus with 2 samples.

Results

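The genes described here are the coactivators Yap1 and Wwtr1 (the Taz of the Hippo pathway, not tafazzin), the transcription factors Tead1 to Tead4, the Tead cofactor Vgll3, and the target genes Ccn2 (formerly Ctgf), Ccn1 (formerly Cyr61) and Ankrd1. They were measured in cultures of mouse embryonic stem cells, pluripotent cells grown from the early embryo. The members are every probe set annotated to exactly 1 of these 10 genes, or 10 of the 18194 genes measured, which gave 21 probe sets of the 34945 that name 1 gene and of the 45101 on the array. The genes were picked with earlier results on the same 2 arrays in view, so their differences are given as a description.

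The cultures were of strain C57BL/6, derived at embryonic day 3.5 and used at passage 15 to 18. The genotype label was MOF +/+ for the wild type culture and MOF-/- for the Mof null culture, and Mof (gene symbol Kat8) encodes a histone H4 acetyltransferase. Both were maintained with LIF on feeder layers of mouse embryonic fibroblasts, and then passaged without feeders before total RNA was taken. The number of clones behind each culture and any agent used to delete the gene are not given in the sources used here. The biotin-labelled RNA was read on 1 array per culture, so there is no replicate error and no test, and all counts rest on a fixed size of 2-fold.

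Yap and Taz carry no DNA-binding domain and act on genes by binding Tead factors, which sit on DNA at a short motif. The Hippo kinases Mst and Lats phosphorylate Yap and Taz, which keeps them out of the nucleus, and spread cell shape and a stiff substrate favour their nuclear form. Vgll proteins bind the same face of Tead factors as Yap and Taz do. Tead factors and Yap act in the choice between trophoblast and inner cell mass in the early embryo, while Ccn1, Ccn2 and Ankrd1 are the target genes most often read to follow the pathway in fibroblasts and epithelia.

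To show what stands in front of these genes, the 250 bases upstream of the annotated start of 5 members are given from RefSeq, build GRCm38.p6. The first 4 belong to members with a probe set at least 2-fold lower on the null-labelled array, and the fifth to Tead2, the member with the most positive difference. Each is written on the gene's strand, with the Tead core motif GGAATG, or its reverse complement CATTCC, in capitals. The windows are chr16:65814939-65815188 on the plus strand for Vgll3, chr3:57575911-57576160 on the minus strand for Wwtr1, chr3:145649986-145650235 on the minus strand for Ccn1, chr19:36119845-36120094 on the minus strand for Ankrd1 and chr7:45215542-45215791 on the plus strand for Tead2.
Vgll3: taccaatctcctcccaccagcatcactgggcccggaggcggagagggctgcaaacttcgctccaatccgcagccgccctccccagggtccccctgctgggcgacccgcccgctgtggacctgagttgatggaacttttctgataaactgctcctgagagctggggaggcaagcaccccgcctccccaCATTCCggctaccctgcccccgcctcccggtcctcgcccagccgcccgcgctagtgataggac
Wwtr1: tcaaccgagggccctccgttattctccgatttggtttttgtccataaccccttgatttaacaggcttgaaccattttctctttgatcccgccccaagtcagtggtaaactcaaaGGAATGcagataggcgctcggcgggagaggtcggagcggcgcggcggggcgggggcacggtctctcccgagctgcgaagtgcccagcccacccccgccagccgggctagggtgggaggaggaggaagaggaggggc
Ccn1: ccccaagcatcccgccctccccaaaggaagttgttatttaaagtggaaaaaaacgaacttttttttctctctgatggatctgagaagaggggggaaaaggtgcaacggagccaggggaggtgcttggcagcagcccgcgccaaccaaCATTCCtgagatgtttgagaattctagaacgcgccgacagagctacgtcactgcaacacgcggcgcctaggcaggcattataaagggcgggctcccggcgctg
Ankrd1: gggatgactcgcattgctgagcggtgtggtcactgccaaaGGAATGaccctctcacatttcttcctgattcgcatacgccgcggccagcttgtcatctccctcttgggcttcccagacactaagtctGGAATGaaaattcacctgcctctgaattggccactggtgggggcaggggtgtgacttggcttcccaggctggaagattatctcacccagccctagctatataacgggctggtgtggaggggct
Tead2: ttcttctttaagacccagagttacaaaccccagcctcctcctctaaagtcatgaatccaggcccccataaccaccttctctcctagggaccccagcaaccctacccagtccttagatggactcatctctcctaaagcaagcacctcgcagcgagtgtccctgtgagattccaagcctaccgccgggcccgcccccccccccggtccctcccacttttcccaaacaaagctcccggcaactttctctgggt

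Windows were found for 7 of the 10 genes, and Ccn2, Tead1 and Tead4 had none in the table used. Of these 7 genes, 6 had GGAATG on either strand in at least 1 window, counting all annotated starts. By window, 8 of the 10 member windows held the motif, although the Wwtr1 windows overlap and hold the same site. Over all 32851 windows of the same length, 12.6% held the motif and 1.02% held it 2 or more times. The members were picked as genes and targets of this pathway, so nothing is read from the comparison. Ankrd1 held the motif 2 times, 210 and 123 bases before the start. Ccn1 held it 1 time, 103 bases before the start, Vgll3 63 bases before and Wwtr1 136 bases before. Yap1 held it 141 bases before its start, and Tead3 in 2 of its 3 windows, and neither gene had a probe set past 2-fold. Tead2 had no match. The AP-1 motif TGANTCA and the CArG box, read by Srf, were searched in the same windows on both strands and found in none of the members, against 6.75% and 1.47% of all windows. The letters TATAAA, on either strand, were found 1 time in Ccn1 and in no other member, against 12.4% of all windows. TGANTCA can overlap CATTCC, and TATAAA can lie within a CArG box, by their letters.

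Of the 21 member probe sets, 11 were lower by 2-fold or more in the null-labelled culture and none was higher by as much. Over all 34945 probe sets naming 1 gene these shares were 7.15% and 2.86%, and since the members were picked from the same contrast nothing is read from the comparison. The 11 belong to Vgll3, Wwtr1, Ccn1 and Ankrd1. A further 3 probe sets lay just under 2-fold, those of Ccn2, Wwtr1 and Yap1, with differences of -0.97, -0.97 and -0.96 on the log2 scale. With each gene read by its brightest probe set, 4 of 10 passed 2-fold towards lower values and none towards higher ones, against 11.9% and 5.09% of the 12015 expressed genes. To count as expressed, a gene or probe set had to reach 6.02, the median of all values of both arrays, on at least 1 array, and 20 of the 21 member probe sets passed this level.

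**Figure D1:**
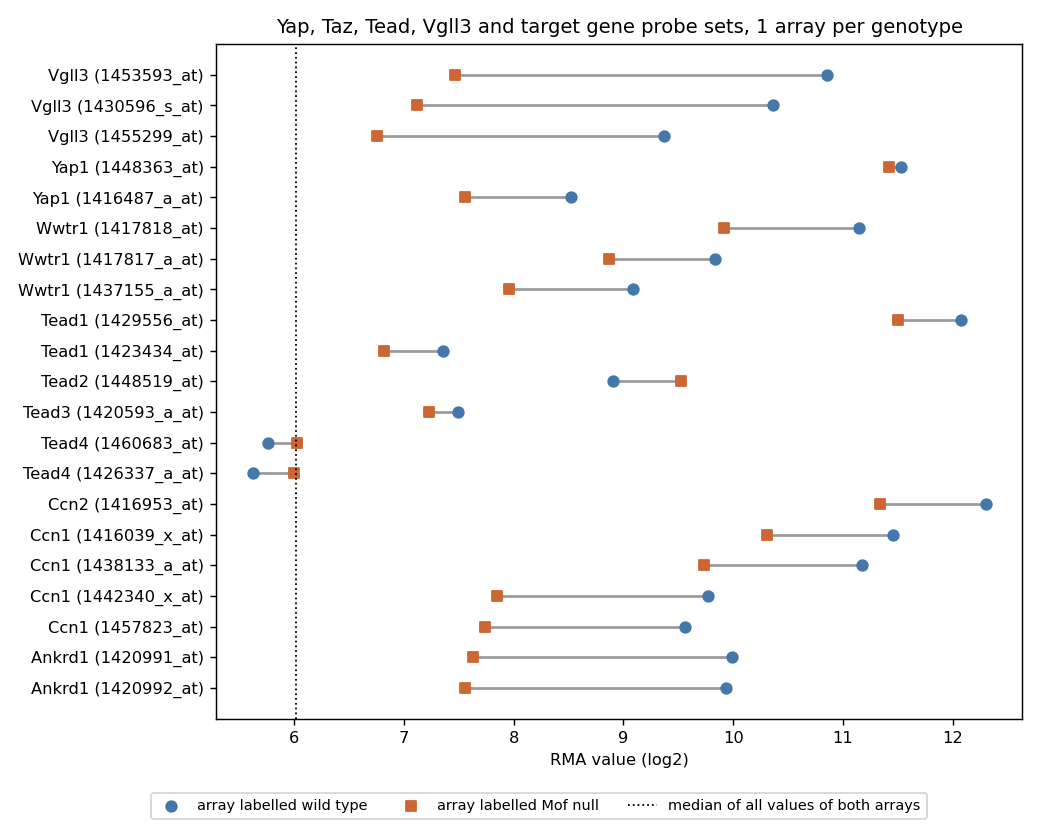
RMA values (log2, horizontal axis) of the 21 member probe sets on the wild type-labelled array (circles) and the null-labelled array (squares), 1 array each, with the median of all values as a dotted line. The circles lie to the right of the squares for 18 probe sets, most widely for Vgll3 and Ankrd1, and to the left for Tead2 and Tead4.

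Vgll3, a cofactor that binds Tead factors through its Vestigial-like domain, had the largest difference among the members. Its 3 probe sets read 10.86, 10.37 and 9.37 on the wild type-labelled array and 7.46, 7.12 and 6.75 on the null-labelled array. All 3 were lower on the null-labelled array and still above the level filter there. The differences were -3.39, -3.24 and -2.62, or 10.5-fold, 9.48-fold and 6.15-fold lower. The brightest of them put Vgll3 at rank 5 from the lowest difference among the expressed genes. The first 2 of these probe sets were built on the same transcript accession, so they are not independent readings, and the third, built on another, gave the smallest difference. The gene lies on chromosome 16 from 65815189 to 65866368 in GRCm38.p6.

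Marker genes of other cell types also differed between the arrays, and which cells their RNA came from was not measured. In bulk samples fewer cells of a type and less RNA per cell cannot be told apart. Over all expressed genes 11.9% were lower by 2-fold or more and 5.09% were higher. All 23 expressed fibroblast markers, each on its brightest probe set, lay below 0, 21 of them at least 2-fold. Their differences ran from -2.92 to -0.76, with a median of -1.93. Their summed linear value was 158565 on the wild type-labelled array and 53244 on the null-labelled array. No value is 0 in these data, and all 23 stayed above the level filter on the null-labelled array, with the collagen genes Col1a1 at 13.13 and 10.21 and Col1a2 at 14.17 and 12.97, and the filament gene Vim at 13.95 and 12.71. Of the 21 member probe sets, 12 lay within the range of the fibroblast markers' brightest probe sets, 2 of Vgll3 lay below it and 7 lay above it. With each member also read by its brightest probe set, 4 of 10 genes lay within this range. Other expressed probe sets of the markers reached -3.16 for Prrx1 and -0.28 for Pdgfra. The range over all marker probe sets is thus wider, and also holds those of Tead1. All 12 macrophage markers also lay below 0, 11 of them at least 2-fold, with a median of -2.14 and sums of 18231 and 5231. Of these, Ptprc, at 8.10 and 5.33, and Itgam, at 6.64 and 4.81, were under the level filter on the null-labelled array. Neither the presence of such cells nor their part in the members' differences was tested.

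The stem cell label was checked by the pluripotency genes, which lay above the level filter on both arrays, with Pou5f1 at 12.22 and 12.74, Sox2 at 12.05 and 12.81 and Nanog at 11.92 and 12.66 on the wild type-labelled and null-labelled arrays. As deposited, all 21 pluripotency genes lay above 0 on their brightest probe sets, although another Tbx3 probe set differed by -0.80. Their median difference was 0.60, while the median expressed gene differed by 0.10. After centring on that gene or quantile normalization 19 lay above 0, and 17 after correction of the trend with level. Genes of extraembryonic endoderm had 7 of 14 expressed members at least 2-fold higher and none lower as deposited, and 3 higher and 2 lower relative to the pluripotency median. Endothelial genes had 2 of 5 higher and none lower as deposited, and none either way relative to that median. Over all 12015 expressed genes 5.09% were higher and 11.9% lower by 2-fold or more as deposited. Relative to the pluripotency median 92 of all expressed genes were higher and 2917 lower by as much. Kat8, the targeted gene, read 8.06 and 8.37 on its only probe set above the level filter, and any dimmer one was not examined. The position of this probe set with respect to the deletion was not known here. It therefore does not check the labels, and every direction depends on them. Probe sets of the same gene spread around their mean difference with a pooled SD of 0.33 over 5362 genes, a figure that holds no variation between cultures.

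The differences of the coactivators Wwtr1 and Yap1 were unlike in size on the brightest probe set of each, but not on the dimmer Yap1 probe set. Wwtr1 was lower on all 3 of its probe sets, which read 11.15, 9.84 and 9.09 on the wild type-labelled array and 9.92, 8.87 and 7.96 on the null-labelled array. The differences were -1.23, -0.97 and -1.13, or 2.35-fold, 1.96-fold and 2.18-fold lower, and their SD over probe sets was 0.13, although the first 2 probe sets share an accession. That SD is smaller than the pooled SD of 0.33 between probe sets of a gene.

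Yap1 was read differently by its 2 probe sets. The brighter read 11.53 on the wild type-labelled array and 11.42 on the null-labelled array, and the dimmer read 8.52 and 7.56. The first differed by -0.11, or 1.08-fold, and the second by -0.96, or 1.94-fold, a gap of 0.85 between probe sets built on the same transcript accession. On the brighter, Yap1 was nearly level between the arrays, while on the dimmer its difference was close to those of Wwtr1. The size of the Yap1 difference is thus not settled by these readings, although neither probe set lay above 0.

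The 4 Tead factors, which bind DNA for Yap, Taz and Vgll proteins, had small differences in both directions. Tead1 read 12.08 and 7.35 on its 2 probe sets on the wild type-labelled array and 11.51 and 6.82 on the null-labelled array. These differences of -0.57 and -0.53 lay close together on probe sets of very unlike brightness, and correspond to 1.49-fold and 1.45-fold lower. Tead3 read 7.49 and 7.22, a difference of -0.27 that is smaller than the spread of 0.33 between probe sets of a gene.

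Tead2, the Tead gene known for its activity in the earliest embryonic stages, read 8.91 on the wild type-labelled array and 9.52 on the null-labelled array. The difference of 0.62, or 1.53-fold higher, was the highest among the members and close to the median of 0.60 of the pluripotency genes, so that relative to those genes it came to 0.017. Tead4, which drives the trophoblast fate in the early embryo, read 5.76 and 5.63 on the wild type-labelled array and 6.03 and 6.00 on the null-labelled array. Both probe sets of Tead4 lay near or under the level filter, so their differences of 0.27 and 0.37 have little signal behind them, and relative to the pluripotency median they became -0.33 and -0.23. Of 11 trophoblast genes 8 were expressed, and 2 passed 2-fold in each direction, against 11.9% lower and 5.09% higher over all expressed genes. Of those lower, Gata3, at 6.02 and 4.92, was under the level filter on the null-labelled array. The median difference of the 8 genes was 0.20 as deposited and -0.40 relative to the pluripotency median.

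The classical target genes were lower on each of their 7 probe sets. Ankrd1, an ankyrin repeat protein of muscle that is induced by Yap and by mechanical load, read 9.99 and 9.94 on its 2 probe sets on the wild type-labelled array and 7.63 and 7.56 on the null-labelled array. These differences of -2.36 and -2.38, or 5.14-fold and 5.20-fold lower, came from probe sets built on the same accession. Ankrd1 was next to Vgll3 in the size of its difference.

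Ccn1 encodes a secreted matricellular protein that binds integrins. Its 4 probe sets read 11.46, 11.17, 9.77 and 9.56 on the wild type-labelled array and 10.31, 9.73, 7.85 and 7.73 on the null-labelled array. All were at least 2-fold lower, with differences of -1.15, -1.44, -1.92 and -1.83, or 2.21-fold, 2.72-fold, 3.80-fold and 3.55-fold. The 2 dimmer probe sets, which share an accession, gave the larger differences. The brightest and the probe set with the largest difference are both of the _x_at kind, which can also match other transcripts, as can the _s_at probe set of Vgll3 with the difference of -3.24. Ccn2, a secreted protein of the same family linked to matrix deposition, was read by 1 probe set at 12.30 and 11.33. Its difference of -0.97, or 1.96-fold lower, fell just short of the 2-fold line.

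**Figure D2:**
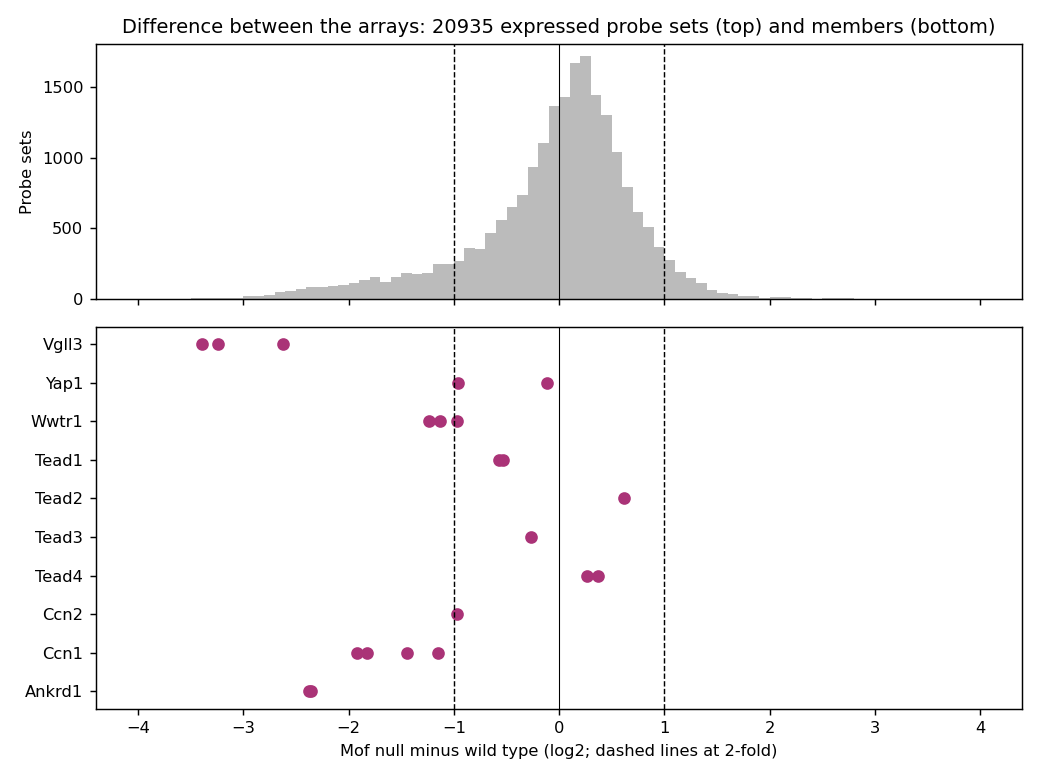
Differences between the arrays (Mof null minus wild type, log2, horizontal axis): a histogram of 20935 expressed probe sets naming 1 gene (top) and the 21 member probe sets by gene, 1 point each (bottom), with dashed lines at 2-fold. Vgll3 and Ankrd1 lie in the left tail, Wwtr1 and Ccn2 near the left dashed line, and the Tead genes between the dashed lines.

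Other target genes of Yap and Tead were mostly lower as well. Of a list of 24 further targets, 22 were expressed, of which 12 were at least 2-fold lower and none higher, with a median difference of -1.08. Over all expressed genes 11.9% were lower, 5.09% were higher and the median was 0.10. Among the 12, Nt5e and Tgfb2 read 7.23 and 7.39 on the wild type-labelled array. They were under the level filter on the null-labelled array, at 6.00 and 5.85. Another Nt5e probe set differed by 0.31. The matrix gene Ccdc80 read 11.75 and 9.24 on the wild type-labelled and null-labelled arrays, or 5.70-fold lower. The RNA-binding protein gene Rbms3 read 10.44 and 8.15, or 4.92-fold lower, and the receptor tyrosine kinase gene Axl 11.98 and 9.74, or 4.75-fold lower. The growth factor binding protein gene Igfbp3 was 3.85-fold lower, the membrane repair gene Myof 3.52-fold and the matricellular gene Thbs1 3.50-fold. Only 2 of the expressed targets lay above 0 on their brightest probe set. These were Birc5, an inhibitor of apoptosis that also rises in dividing cells, at 11.07 and 11.81, and the stress gene Gadd45a, at 10.43 and 10.87. Relative to the pluripotency median Gadd45a differed by -0.16. Many of these targets, like the members Vgll3, Ccn1, Ccn2 and Ankrd1, are also expressed by fibroblasts, whose markers had a median of -1.93 on the same arrays. The part of fibroblasts in the differences of the targets and members was not tested.

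Genes upstream of Yap and Taz went both ways. Of 25 Hippo pathway genes 23 were expressed, of which 7 were at least 2-fold lower and none higher. Of the 23, 8 lay above 0, and the median was -0.56. Over all expressed genes 11.9% were lower, 5.09% were higher and the median was 0.10. Relative to the pluripotency median 13 of the Hippo genes were at least 2-fold lower and 2 lay above 0, and after correction of the trend with level 9 and 5. Under these scalings 2917 and 1658 of all 12015 expressed genes were at least 2-fold lower. The giant cadherin gene Fat4, at 6.89 and 4.99, was 3.73-fold lower and under the level filter on the null-labelled array. The angiomotin-like genes Amotl1, at 11.21 and 9.62, and Amotl2, at 11.16 and 10.07, whose proteins hold Yap at junctions and actin, differed by -1.58 and -1.08. Amot itself, of the same family, went the other way, at 9.46 and 10.29. The scaffold gene Rassf1 was 2.66-fold lower on its brightest probe set, with -0.63 at the least on another, and Frmd6 2.58-fold lower. The phosphatase gene Ptpn14 was 2.12-fold lower on its brightest probe set, while another differed by 0.0036.

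Among the kinases, Lats1 read 9.78 and 8.77, or 2.01-fold lower, and Lats2, itself a target of Yap, differed by -0.52 on its brightest probe set and by -2.85 on another. Stk4 (Mst1) read 10.60 and 10.82, and its adaptor gene Sav1 9.56 and 9.70. The scaffold gene Wwc1 (Kibra) read 8.44 and 9.35, a difference of 0.92, and the upstream activator Nf2 read 9.14 and 9.57. Wwc1 and Amot stayed above 0 under all 5 scalings of the values, at 0.32 and 0.23 at the least, whereas Nf2 came to -0.17 relative to the pluripotency median. Amotl2, Lats2 and Ptpn14 stand in both the target list and the Hippo list.

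Relatives of the members were compared by family. Of the other Vgll genes, Vgll4, an antagonist of Yap at Tead factors, read 8.38 and 7.64, a difference of -0.75, while Vgll1 and Vgll2 were under the level filter on both arrays. Within the Vgll family only Vgll3 passed 2-fold in the values as deposited, and Vgll4 passed it too relative to the pluripotency median, at -1.34. Of the other Ccn genes, Ccn4 (formerly Wisp1) read 11.36 and 8.76, Ccn3 (formerly Nov) 8.58 and 6.05, and Ccn5 (formerly Wisp2) 8.37 and 7.06. They were 6.07-fold, 5.79-fold and 2.47-fold lower, so that Ccn3 and Ccn4 had larger differences than the members Ccn1 and Ccn2, and Ccn6 was under the level filter. Of the muscle ankyrin repeat genes related to Ankrd1, Ankrd2 was under the level filter on both arrays, at 5.56 and 5.65, and Ankrd23 read 6.58 and 6.89. All told, 5 of these 9 relatives were expressed, and 3 were at least 2-fold lower and none higher. Over all expressed genes these shares were 11.9% and 5.09%. Ccn3 was only just above the level filter of 6.02 on the null-labelled array.

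Actin-responsive genes, many of which also answer to the serum response factor Srf and its Mrtf cofactors, were set beside the members because Yap and Mrtf activity both follow the actin cytoskeleton. Over all expressed genes 11.9% were lower by 2-fold or more, 5.09% were higher and the median was 0.10. Of the 15 actin-responsive genes that were expressed, 10 passed 2-fold towards lower values and none towards higher ones, with a median of -1.81. The fibroblast markers, with a median of -1.93 and 21 of 23 lower by 2-fold or more, moved with them, and their part in this was not tested. They were led by the calponin gene Cnn1 at 6.89-fold, Myl9, a regulatory light chain of myosin, at 6.64-fold, Filip1l at 5.91-fold, the tropomyosin gene Tpm2 at 5.36-fold, Tagln at 4.16-fold and Cnn2 at 3.94-fold. Srf itself read 8.19 and 8.30, and its cofactor genes Mrtfa 8.87 and 8.29 and Mrtfb 9.73 and 9.06.

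**Figure D3:**
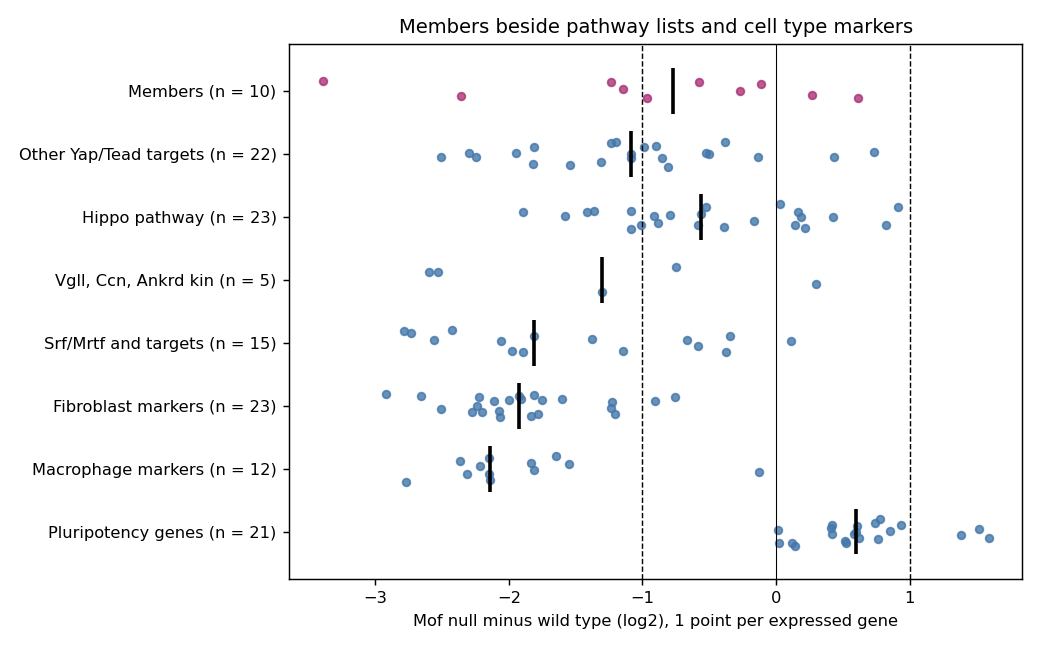
Differences between the arrays (Mof null minus wild type, log2, horizontal axis) of the 10 member genes and of 7 other gene lists, 1 point per expressed gene on its brightest probe set, with list medians as bars and dashed lines at 2-fold. The members spread from -3.39 to 0.62, the fibroblast markers have a median of -1.93 and the pluripotency genes one of 0.60.

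By Euclidean distance between the 2 log2 values, the expressed genes nearest to Vgll3 were Wnt5a, at 10.56 and 7.59, Sema3c, at 10.70 and 7.77, and Parp3, at 10.51 and 7.24, at distances of 0.32, 0.34 and 0.41. Those nearest to the brighter Yap1 probe set were Rab5a, 1110038B12Rik and Ube2e3, at distances of 0.024, 0.027 and 0.032, with differences of -0.13, -0.082 and -0.068. The distance covers 2 arrays only and rests on levels of different probe sets, which also depend on how well each probe binds, so it describes values on these arrays and not a likeness of the genes.

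The direction of the members was compared over 5 scalings of the same values. Centring and the pluripotency scaling subtract 0.10 and 0.60 from every difference, so a negative difference could not turn positive under them. The deposited columns, once sorted, differ by at most 0.13, so quantile normalization could change little. The kept sign of the negative differences below is therefore little of a check. Vgll3, Yap1, Wwtr1, Tead1, Tead3, Ccn1, Ccn2 and Ankrd1 lay below 0 on all their probe sets under each scaling, Tead2 lay above 0, and only Tead4 changed sign. The brightest Vgll3 probe set ranged from -3.99 to -3.36, the brighter Yap1 probe set from -0.71 to -0.11, and Ccn2 from -1.57 to -0.97.

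**Figure D4:**
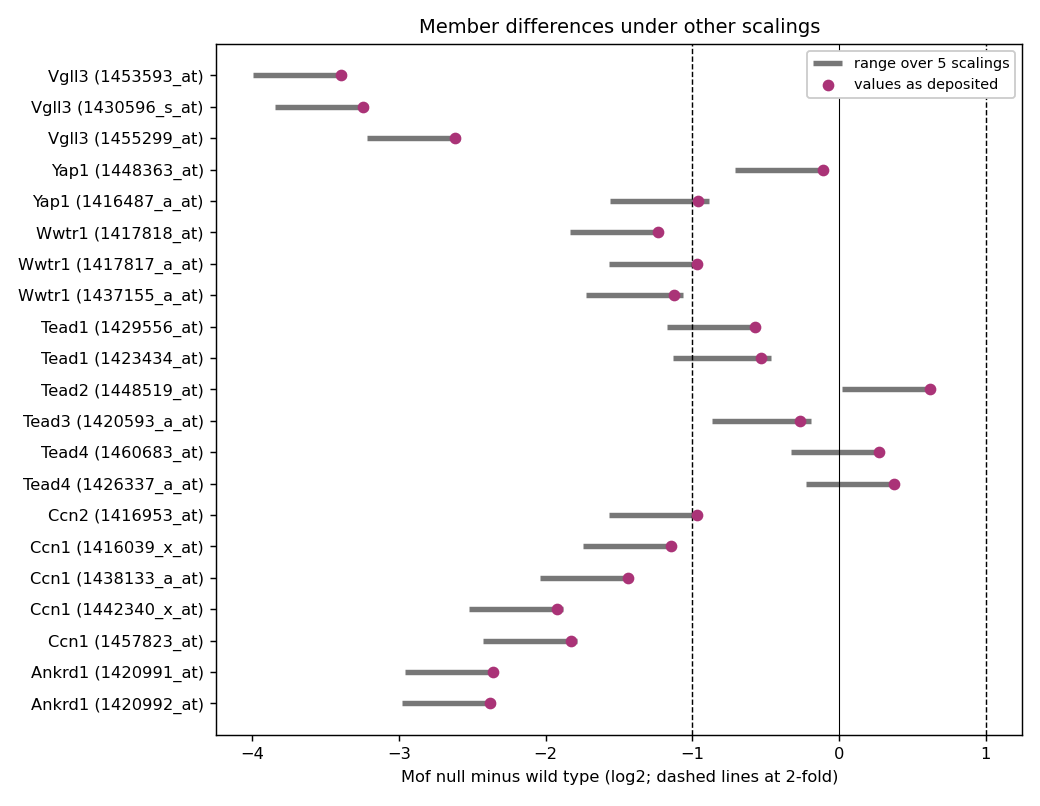
Differences of the 21 member probe sets (Mof null minus wild type, log2, horizontal axis) as deposited (points) and their range over 5 scalings (bars), with dashed lines at 2-fold. The bars of Tead4 cross 0, that of Tead2 reaches 0.017, and those of Vgll3 and Ankrd1 end at -2.59 and -2.33 or lower.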

How the data were processed

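Total RNA of 2 cultures was measured on 1 Affymetrix array each. The authors deposited log2 values, for which the submitters' processing notes name RMA, affy and R 2.10.0. RMA corrects background, quantile-normalizes and summarises by median polish, so a change of most transcripts in 1 direction cannot be seen and differences near the top of the scale are compressed. Nothing read here says whether other arrays shared the run. For arrays, their number limits the precision.

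Names came from GEO's platform annotation, which lists 35890 probe sets, 932 of them with several symbols, while 9211 are not listed. The 34945 with 1 symbol and 1 Entrez ID were used, and 34741 of their IDs were found in RefSeq (GRCm38.p6), which also resolved older symbols. No member shares a probe set with another gene. List genes without a match by this route are not analysed here. A gene took its probe set with the highest mean. Differences are Mof null minus wild type, and a fold is 2 to the power of their size. No test was run, and the counting was tested on simulated data. The members, the lists and the rules were chosen with earlier results of these data known. Named are the members, Kat8, the most changed expressed genes of each list (at most 6 of a pathway list and 4 of a marker list), relatives of members, standard markers, and the 3 genes nearest to Vgll3 and Yap1. Amot, Birc5, Gadd45a, Itgam, Lats1, Lats2, Mrtfa, Mrtfb, Nf2, Nt5e, Sav1, Srf, Stk4, Tgfb2 and Wwc1 are outside it and were picked with their values in view. The alternatives were another choice of probe sets, level filter, scaling or threshold. Python 3.11.15, pandas 2.3.3, numpy 2.4.6, statsmodels 0.14.6 and matplotlib 3.10.9 were used.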

Additional observations from a re-analysis of the deposited data

How the results depend on the processing

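With 1 array per genotype no array could be left out, and no paired analysis was possible because each group has a single array. Taking the mean of a gene's probe sets applies to gene counts only. Under the other alternatives, the number of member probe sets at least 2-fold lower stayed within 1.5 times of 11 except at a 4-fold threshold, where it was 5. The number of member genes, 4 as reported, was then 2, and stayed within 1.5 times under the rest. At a 1.5-fold threshold 1 probe set and 1 gene, Tead2, counted as higher, against none. Relative to the pluripotency median, which subtracts 0.60 from every gene, 16 member probe sets and 6 member genes were at least 2-fold lower. Under it 2917 of all 12015 expressed genes were at least 2-fold lower, against 1429 as deposited. That scaling took the list medians to -1.16 for the Hippo pathway, -1.68 for further Yap and Tead targets, -1.90 for relatives of members and -2.41 for Srf and Mrtf genes. The median of the relatives, a list of 9 genes, was -0.25 with no level filter and -2.57 with a filter at percentile 75. Over all expressed genes, 29.95% of those past 2-fold were higher as deposited and 3.06% relative to the pluripotency median. None of the members' differences past 2-fold changed sign under the 4 other scalings. All of them were negative, and centring and the pluripotency scaling cannot turn a negative difference positive. Signal limits Tead4, near or below the median of all values.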
